A study of Mus musculus with 12 samples.

Results

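The 9 genes described here encode the cytosolic machinery that builds and breaks down glycogen in muscle: Ugp2, Gyg, Gys1 and Gbe1 for synthesis, Pygm, Phka1 and Phkg1 for breakdown, and Epm2a and Stbd1 for the structure and routing of the particle. They were chosen by gene symbol, and all 9 were found among the 15344 genes of the quadriceps RNA-seq tables. The study sequenced quadriceps muscle of 12 C57BL/6 mice at 6 months of age, 4 in each of 3 groups. The group labelled WT was untreated. The group labelled KO carried the GAA Knock-out genotype and received PBS. The group labelled AAV carried the same GAA Knock-out genotype and received AAV2/8-LSPhGAApA, a viral vector for human GAA with a liver-specific promoter, into the tail vein. Per the study's methods, the injected knock-outs were male, were injected at 2 months of age and were harvested 4 months later. The promoter thus drives the transgene in liver, while muscle was sequenced. Of 4 liver markers, the 2 in the tables had low counts here. Their highest counts were 25.7 for Alb and 11.9 for Apoa1, both in the library labelled AAV 4.

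Glycogen in the cytosol of a muscle fibre grows on glycogenin, which glucosylates itself and primes the chain. UDP-glucose pyrophosphorylase makes the sugar donor, glycogen synthase lengthens the chain and the branching enzyme adds branch points. Phosphorylase shortens the outer chains when phosphorylase kinase, an enzyme of several subunits, has activated it. Laforin removes phosphate from glycogen and Stbd1 binds glycogen and has been linked to its delivery to lysosomes. GAA, the enzyme missing in Pompe disease, digests the part of the glycogen that reaches the lysosome and takes no part in the cytosolic steps.

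Values are normalized read counts, in which each library's reads were divided by one size factor. WT 1 to 4, KO 1 to 4 and AAV 1 to 4 stand below for the libraries that carry those labels. The libraries held between 22122233 and 47379737 reads, with the lowest median in the libraries labelled AAV (30073969). The gene that was targeted went against the labels, since Gaa was at 343, 14640.2, 324 and 460.3 in WT 1 to 4, 12151, 13074.5, 11936 and 12895 in KO 1 to 4, and 947, 587, 499.6 and 9854 in AAV 1 to 4. The libraries labelled WT 2 and AAV 4 stood apart from the others of their groups in Gaa, which was high in every library labelled KO. The counts cover the whole gene and the position of the disruption is not given in the sources used here, so reads from exons outside it would still be counted in the KO libraries and would check nothing. This does not bear on the low counts in WT 1, 3 and 4. The GAA activity and glycogen that the study measured in its mice bear on the labels and were not analysed here, and an exchange of libraries was not tested. For this reason groups are named by the labels of their libraries, each direction rests on those labels, and the counts of members called and the members' fold changes are also given without WT 2 or AAV 4. The muscle fibre markers Acta1 and Ckm were high in all 12 libraries, with lowest normalized counts of 719662 and 486367. Of the 6 markers in that list, Des was lower in KO than in WT libraries (-1.03, adjusted p = 0.00874) and higher in AAV than in KO libraries (0.72, adjusted p = 0.0267), and Myh4 was higher in KO than in WT libraries (limma with Benjamini-Hochberg adjustment over all genes tested, BH below, called at an adjusted p below 0.05). In the 8 fits that left out 1 library, that of Myh4 was called in 1 and that of Des in AAV against KO in 3. Of 7 slow-fibre markers, 7 were lower in the libraries labelled KO than in those labelled WT and 6 were higher in those labelled AAV than in those labelled KO, by the same test. Their summed normalized count was 3396 to 6630 in WT libraries, 1112 to 1297 in KO and 2934 to 24410 in AAV. Of 8 fast-fibre markers, Myh4 was higher and Myh1 lower in the libraries labelled KO than in those labelled WT. Myh1 was higher in AAV than in KO libraries. The summed count of the fast-fibre markers was 4444837 to 5416707 in WT libraries, 5500001 to 6475845 in KO and 3820563 to 6299173 in AAV. Of 5 endothelial markers, 4 were higher in the libraries labelled KO, with sums of 4580 to 5586 against 1754 to 4712 in those labelled WT. Of 5 macrophage markers, 2 were lower and 1 was higher there, and none of the adipocyte (7), fibroblast (5) or Schwann cell (4) markers passed that test. In AAV against KO, both erythroid markers in the tables (2 of 2) were higher and the endothelial marker Vwf was lower (adjusted p = 0.00682, limma, BH). In bulk tissue, fewer cells of a type and less RNA per cell cannot be told apart, and the part of these markers in the results below was not tested.

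**Figure D1:**
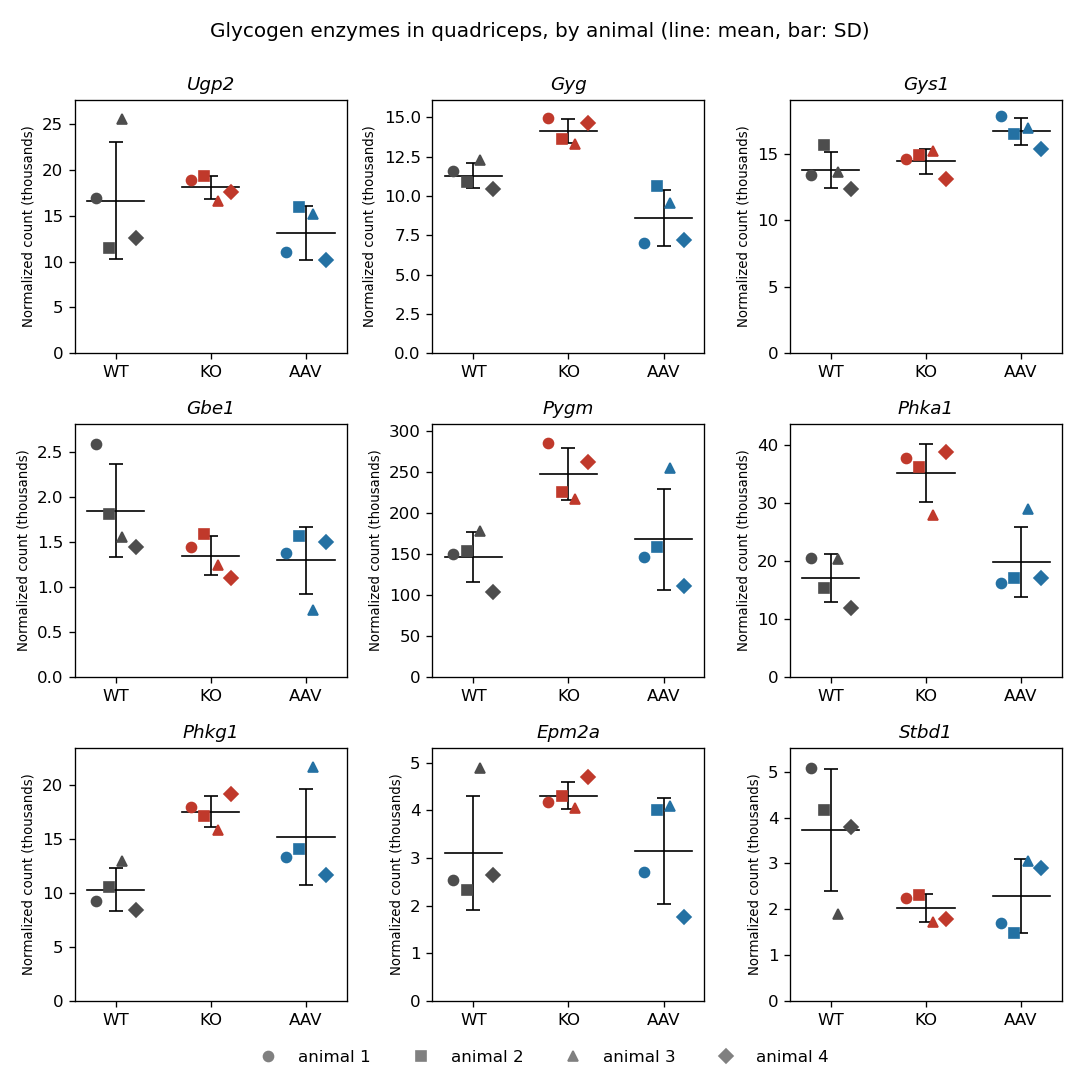
Normalized read count (linear axes from 0) of each of the 9 glycogen genes in every animal, by group; marker shapes stand for animals 1 to 4, the horizontal line for the group mean and the bar for its SD (n = 4). For Pygm, Phka1 and Phkg1 the 4 libraries labelled KO lie above the 4 labelled WT, while Gys1 spans only 12401 to 17891.

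Between the libraries labelled KO and WT, the breakdown members Pygm, Phka1 and Phkg1 were 1.71, 2.09 and 1.72 times as high and passed the test (3 of 3). Of the synthesis members 0 of 4 passed, with Gyg near the threshold (adjusted p = 0.0524, limma, BH), and whether synthesis and breakdown members differ was not tested. Stbd1 fell, to 0.571 times its level in the libraries labelled WT. In all, 4 of the 9 members passed the test (adjusted p below 0.05, limma with BH adjustment), 3 higher and 1 lower, where 27.6% of the 14859 genes tested did, 12.3% higher and 15.3% lower. The median log2 fold change of the 9 members was 0.32, beside 0.024 over all genes tested. When the study's fold threshold of 1 on the log2 scale was added, 1 member passed, Phka1, where 13.9% of all genes did. The groups did not overlap for 4 members, all higher in the libraries labelled KO, where the share of all genes was 28.3% in either direction and 13.3% higher. Without WT 2, which stood apart in Gaa, 3 of the 9 were called and Stbd1 was not, where 17.9% of all genes were called. With libraries scaled by total reads, 4 were higher and 0 lower, with Gyg called and Stbd1 not, where 26.6% of all genes were called.

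Set against the KO libraries, those labelled AAV gave 2 of 9 members past the test, Gyg and Phka1, both of them lower. Over all 14894 genes tested, 26.3% passed, 12.8% higher and 13.4% lower (limma, BH). The median of the members was -0.49, beside 0.0405 over all genes. None of the 9 passed with the study's fold threshold (8.98% of all genes did), with 4 members at an unadjusted p below 0.05, as 41.1% of all genes were. The groups did not overlap for Ugp2 and Gyg, which were lower, and for Gys1, which was higher, where 30.6% of all genes did not overlap (14.8% higher, 15.8% lower). Without AAV 4, which stood apart in Gaa, 2 of the 9 were called, where 22.1% of all genes were. With libraries scaled by total reads, 1 was higher (Gys1) and 2 were lower, where 16% of all genes were higher and 8.49% lower, with a median over all genes of 0.21. Both comparisons use the same libraries labelled KO, so that their fold changes are not independent and are given side by side only.

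**Figure D2:**
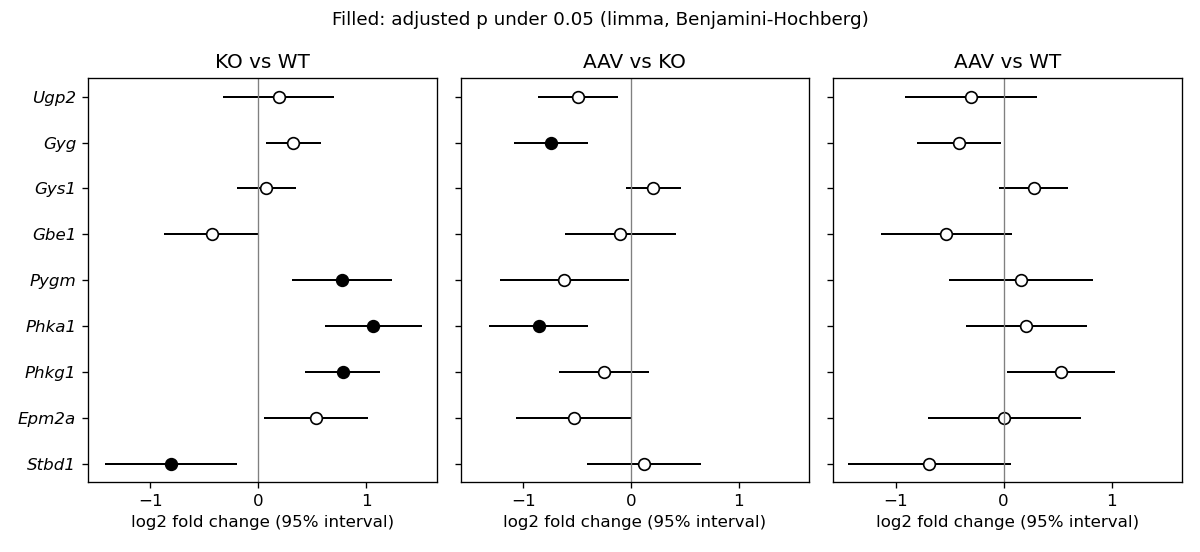
Log2 fold change (limma on log2 of normalized count plus 1) of the 9 genes in the 3 comparisons of groups of 4 animals, with 95% intervals as lines; filled points had adjusted p below 0.05 (BH). The points are filled for 4 genes in KO vs WT, for 2 in AAV vs KO and for 0 in AAV vs WT.

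Pygm encodes muscle glycogen phosphorylase, which releases glucose 1-phosphate from the outer chains (ENSMUSG00000032648, chr19:6384399-6398459, plus strand). It was the most abundant of the 9 per length, with 58130 ± 18670 normalized counts per kilobase of exon (SD over 12 animals). Pygm stood at 149411, 153152, 178474 and 104062 in WT 1 to 4, 284639, 225502, 216726 and 261685 in KO 1 to 4, and 146932, 158766.5, 254258.5 and 110983 in AAV 1 to 4. Each library labelled KO exceeded each labelled WT, and the library labelled AAV 3 lay within the range of those labelled KO while the other 3 lay within the range of those labelled WT. The mean was 146275 ± 30961.5 for WT, 247138 ± 31680.3 for KO and 167735 ± 61156 for AAV libraries (SD, n = 4). For KO against WT the log2 fold change was 0.77 with an SE of 0.20 and an adjusted p of 0.0213 by limma with BH adjustment. It was called with all 4 libraries of each group and in 6 of the 8 fits that left out 1 library, and not without KO 1 (adjusted p = 0.0656) or KO 4 (adjusted p = 0.0565), with 0.000732 to 0.0656 as the range of the adjusted p over all 17 alternatives. Without WT 2 the log2 fold change was 0.81 (adjusted p = 0.0418, limma, BH). For AAV against KO it was -0.62 with an SE of 0.27 and an adjusted p of 0.110, and without AAV 3 it was -0.84 (adjusted p = 0.0137) and without AAV 4 -0.44 (adjusted p = 0.203), by the same test. Of 17 alternatives the fit without AAV 3 was the one to call it (adjusted p 0.0137 to 0.230 over all of them).

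Phosphorylase kinase activates phosphorylase by phosphorylating it. Phka1 encodes the muscle form of its regulatory α subunit (ENSMUSG00000034055, chrX:102513975-102644246, minus strand) and Phkg1 the muscle form of its catalytic γ subunit (ENSMUSG00000025537, chr5:129863421-129898549, minus strand). Phka1 counts were 20577, 15348, 20393 and 11914 in WT 1 to 4, 37734, 36084, 27872 and 38807 in KO 1 to 4, and 16213, 17068, 28942 and 17088.5 in AAV 1 to 4. The libraries labelled KO were all above those labelled WT, and the library labelled AAV 3 stood apart from the other 3 of its group and above KO 3. For KO against WT, Phka1 had a log2 fold change of 1.07 with an SE of 0.20 and an adjusted p of 0.00576 by limma with BH adjustment, 35124 ± 4963 against 17058 ± 4199 (SD, n = 4). This call held in 8 of 8 fits that left out 1 library, over which the log2 fold change was 0.90 to 1.17, and was 1.03 (adjusted p = 0.0186) in the fit without WT 2. The libraries labelled AAV were lower than those labelled KO by a log2 fold change of -0.86 with an SE of 0.20 and an adjusted p of 0.0162, a call that also held in 8 of 8 such fits. Without AAV 3 the fall was -1.05 (adjusted p = 0.00175) and without AAV 4 it was -0.80 (adjusted p = 0.0299, within 0.00127 to 0.0532 over 17 alternatives), by limma with BH adjustment.

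For Phkg1 the normalized counts were 9253, 10598.5, 12953 and 8408 in WT 1 to 4, 17932, 17103, 15826 and 19182 in KO 1 to 4, and 13296, 14062, 21624 and 11616 in AAV 1 to 4. It was higher in every library labelled KO than in every one labelled WT, and the highest of all 12 was AAV 3. The KO against WT log2 fold change was 0.78 with an SE of 0.15 and an adjusted p of 0.00660, called in 8 of 8 fits without 1 library (limma, BH), among them 0.80 (adjusted p = 0.0159) without WT 2. Unlike Phka1, Phkg1 did not pass the test in the libraries labelled AAV against KO, at -0.25 with an SE of 0.18 and an adjusted p of 0.329, although without AAV 3 it was called at -0.43 (adjusted p = 0.0254, the lowest of 17 alternatives that reached 0.664, limma, BH). It was -0.13 without AAV 4 and -0.081 with libraries scaled by total reads, neither called. Whether the 2 subunits differed in response was not tested. The ratio of Phka1 to Phkg1 per kilobase of exon was 1.26 to 1.53 in the 4 libraries labelled AAV and 1.83 to 2.19 in those labelled KO, without overlap. In the libraries labelled WT the same ratio was 1.47 to 2.31. The exons annotated to Phkg1 share 630 of 6509 bases with Sumf2 on the opposite strand, and whether the counting used strand is not given in the sources used here. No near-identical transcript of a gene in the tables was found for any of the 9 members.

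These 3 breakdown genes were called higher together in the libraries labelled KO, so the 250 bases before their RefSeq starts are shown, on GRCm38.p6 and read 5′ to 3′ along the gene. Capitals mark CANNTG, the core letters of an E-box, the site type of the muscle regulatory factors. RefSeq and GENCODE starts differ, so that 250 of the bases shown for Phkg1 and 9 of those for Pygm lie inside the span GENCODE gives the gene. The windows are chr19:6384158-6384407, plus strand for Pygm, chrX:102644247-102644496, minus strand for Phka1 and chr5:129879089-129879338, minus strand for Phkg1.
Pygm: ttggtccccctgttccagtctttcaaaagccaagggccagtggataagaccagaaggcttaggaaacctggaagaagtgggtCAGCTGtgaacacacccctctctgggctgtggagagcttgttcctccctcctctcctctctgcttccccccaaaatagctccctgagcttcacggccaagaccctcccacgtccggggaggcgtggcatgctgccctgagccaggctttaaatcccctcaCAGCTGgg
Phka1: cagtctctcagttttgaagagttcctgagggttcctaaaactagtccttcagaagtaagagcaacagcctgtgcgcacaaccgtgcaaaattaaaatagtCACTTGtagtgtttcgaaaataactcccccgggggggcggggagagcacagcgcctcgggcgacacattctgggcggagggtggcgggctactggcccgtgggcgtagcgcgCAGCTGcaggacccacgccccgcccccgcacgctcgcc
Phkg1: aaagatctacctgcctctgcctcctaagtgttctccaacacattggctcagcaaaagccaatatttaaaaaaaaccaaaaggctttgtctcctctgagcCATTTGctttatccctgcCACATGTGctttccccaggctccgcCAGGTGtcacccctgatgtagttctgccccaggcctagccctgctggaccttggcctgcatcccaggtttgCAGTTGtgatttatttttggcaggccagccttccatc
CANNTG occurred at 2 positions before Pygm, 2 before Phka1 and 5 before Phkg1, where the capitals of CACATGTG hold 2 overlapping matches. Both matches before Pygm read CAGCTG, as does 1 of those before Phka1. At least 1 match was present in 66.2% of 32841 promoter windows of the same length. CACGTG, which is one form of CANNTG, occurred in 0 of the 10 windows of the 9 members (6.02% of all windows), as did TGACGTCA (1.55%), the MEF2 consensus (2.92%) and TATAAA (12.4%), searched on both strands. GGGCGG, the core of the GC box, was found at 3 positions before Phka1 and at 0 before Pygm and Phkg1, with 32.7% of all windows holding at least 1. A match is a description of the letters and not of binding.

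Ugp2 encodes UDP-glucose pyrophosphorylase, which makes UDP-glucose (ENSMUSG00000001891, chr11:21321138-21371201, minus strand). Counts of Ugp2 were 16989, 11520.2, 25585 and 12640.5 in WT 1 to 4, 18935, 19361, 16611 and 17589 in KO 1 to 4, and 11023, 16015, 15253 and 10156 in AAV 1 to 4. WT 3 was the highest of all 12 libraries and the other libraries labelled WT reached down to the range of those labelled AAV, so that the libraries labelled KO lay inside the spread of those labelled WT. For KO against WT the value was 0.19 with an SE of 0.23 and an adjusted p of 0.550, and without WT 3 it was 0.42 (adjusted p = 0.0340, the lowest of 17 alternatives that reached 0.919), by limma with BH adjustment. It was 0.036 without WT 2 and 0.081 without WT 4, neither called. Each library labelled AAV was below each labelled KO, at -0.49 with an SE of 0.16 and an adjusted p of 0.0502, which just missed the threshold (limma, BH). DESeq2 on the recovered reads placed that difference at -0.48 (adjusted p = 0.0239, BH), and 4 of 17 alternatives called it (adjusted p 0.0239 to 0.142), not among them the fit without AAV 4 (-0.38, adjusted p = 0.0931).

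Gyg encodes glycogenin, the protein primer of the particle (ENSMUSG00000019528, chr3:20122084-20155317, minus strand). Gyg was measured at 11579, 10868.5, 12300.2 and 10438 in WT 1 to 4, 14927, 13618, 13315 and 14622 in KO 1 to 4, and 6989, 10635, 9521 and 7210.4 in AAV 1 to 4. Every library labelled KO was above every one labelled WT and every one labelled AAV, while AAV 2 fell between WT 4 and WT 2, so that those 2 groups overlapped. The KO mean was 14121 ± 775, against 11296.5 ± 818 for WT and 8589 ± 1781 for AAV libraries (SD, n = 4). The log2 fold change came to 0.32 with an SE of 0.11 and an adjusted p of 0.0524 for KO against WT, not past the threshold, and -0.74 with an SE of 0.15 and an adjusted p of 0.00978 for AAV against KO (limma, BH). The fall in the libraries labelled AAV was called in 8 of 8 fits without 1 library, at -0.85 to -0.65, and in 17 of 17 alternatives in all. Without AAV 4 it was -0.66 (adjusted p = 0.0161, within 0.000119 to 0.0355 over the alternatives, limma, BH). The KO against WT value was called by DESeq2 (0.31, adjusted p = 0.0101) and not by edgeR (0.32, adjusted p = 0.0643), both on the recovered reads with BH adjustment, and 4 of 17 alternatives called it (adjusted p 0.0101 to 0.138). Without WT 2 it was 0.31 (adjusted p = 0.0889, limma, BH). As the only synthesis member called in any comparison, Gyg is shown with the 250 bases before its RefSeq start (chr3:20155117-20155366, minus strand), 201 of which lie inside the GENCODE span, with CANNTG in capitals.
Gyg: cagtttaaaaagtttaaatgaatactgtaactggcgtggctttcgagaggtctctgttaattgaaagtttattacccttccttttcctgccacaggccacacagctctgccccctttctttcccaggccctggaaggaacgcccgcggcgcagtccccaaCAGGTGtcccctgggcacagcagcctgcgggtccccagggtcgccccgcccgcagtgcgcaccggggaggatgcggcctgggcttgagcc
The window held 1 CANNTG, reading CAGGTG, and 1 GGGCGG.

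Gys1 encodes muscle glycogen synthase, which adds glucose units to the chain (ENSMUSG00000003865, chr7:45434844-45456619, plus strand). Gys1 counts came to 13415, 15676, 13684 and 12401 in WT 1 to 4, 14594.5, 14919, 15236 and 13123 in KO 1 to 4, and 17891, 16531.5, 16996 and 15410.1 in AAV 1 to 4. Gys1 varied least of the 9, by 1.44 times from the lowest to the highest library, and every library labelled AAV was above every one labelled KO. In KO against WT the difference was 0.072 with an SE of 0.12 and an adjusted p of 0.669, with a 95% interval of -0.19 to 0.34 (limma, BH). In AAV against KO it was 0.21 with an SE of 0.11 and an adjusted p of 0.175 by the same test. When libraries were scaled by their total reads, that difference was 0.37 and was called higher (adjusted p = 0.0414, limma, BH), a scaling that moved the median of all genes in this comparison from 0.0405 to 0.21. It was the 1 call in 17 alternatives (adjusted p 0.0414 to 0.370). Without WT 2 the KO against WT value was 0.14, without WT 4 it was 0.022, and without AAV 4 the AAV against KO value was 0.25, with no call. Of the 4789 exon bases of Gys1, 310 are shared with Ruvbl2 on the other strand.

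Gbe1 encodes the branching enzyme (ENSMUSG00000022707, chr16:70313949-70569716, plus strand) and had the lowest level of the 9 per length, 280 ± 81.9 normalized counts per kilobase of exon (SD over 12 animals). Libraries had Gbe1 counts of 2591, 1811, 1558 and 1448 in WT 1 to 4, 1443.5, 1598, 1251 and 1103.5 in KO 1 to 4, and 1377, 1569, 748 and 1501 in AAV 1 to 4. WT 1 was the highest library and AAV 3 the lowest, and the ranges of the 3 groups overlapped. Neither comparison passed the test, at -0.43 with an SE of 0.19 and an adjusted p of 0.118 for KO against WT and -0.098 with an SE of 0.23 and an adjusted p of 0.765 for AAV against KO (limma, BH), and the latter changed sign without AAV 3 (0.15) and with libraries scaled by total reads (0.067). Over the 8 fits without 1 library the former was -0.54 (without WT 4) to -0.26 (without WT 1), and it was -0.43 without WT 2. Without AAV 4 the latter was -0.19, with no call in any of these fits. Even the lowest value, in AAV 3, rested on 633 reads, for which counting alone gives a standard deviation of 3.97%.

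Epm2a encodes laforin, the glycogen phosphatase (ENSMUSG00000055493, chr10:11343404-11459644, plus strand). Epm2a was found at 2548, 2338, 4896 and 2648 in WT 1 to 4, 4163, 4292, 4047 and 4699.5 in KO 1 to 4, and 2707, 4007, 4087.5 and 1770.2 in AAV 1 to 4. WT 3 stood far above the other 3 libraries labelled WT and above every one labelled KO, and the libraries labelled AAV divided into AAV 2 and AAV 3 near those labelled KO and AAV 1 and AAV 4 below. Log2 fold changes were 0.53 with an SE of 0.21 and an adjusted p of 0.0853 in KO against WT and -0.53 with an SE of 0.24 and an adjusted p of 0.122 in AAV against KO, neither past the threshold (limma, BH). Without WT 3 the former was 0.78 and was called (adjusted p = 0.000229), and without AAV 3 the latter was -0.68 and was called (adjusted p = 0.0464, limma, BH), the only call of each in 17 alternatives (adjusted p 0.000229 to 0.200 and 0.0464 to 0.237). Without WT 2 the former was 0.42 (adjusted p = 0.200), and without AAV 4 the latter was -0.28 (adjusted p = 0.205), neither called (limma, BH).

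Stbd1 encodes a membrane protein with a starch-binding domain (ENSMUSG00000047963, chr5:92603041-92606579, plus strand). Stbd1 counts were 5074.5, 4163, 1900.0 and 3793 in WT 1 to 4, 2247, 2316, 1725 and 1799 in KO 1 to 4, and 1712, 1493, 3055 and 2892 in AAV 1 to 4. WT 3 lay within the range of the libraries labelled KO, while the other 3 libraries labelled WT were above all of them. KO libraries differed from WT by -0.81 with an SE of 0.27 and an adjusted p of 0.0483, 2022 ± 303 against 3733 ± 1335 (SD, n = 4; limma, BH). This call was close to the threshold: it was kept in 7 of 17 alternatives and, of the 8 fits that left out 1 library, only in the one without WT 3, where it was -1.10 (adjusted p = 0.000241, limma, BH). Over the alternatives the adjusted p was 0.000241 to 0.120, and without WT 2 the value was -0.73 (adjusted p = 0.119). The libraries labelled AAV fell into a low pair, AAV 1 and AAV 2, and a high pair, AAV 3 and AAV 4, and the difference from KO libraries was 0.12 with an SE of 0.23 and an adjusted p of 0.718 (limma, BH), with a sign that turned without AAV 3 (-0.0415) or AAV 4 (-0.0151). As the only member called lower in KO against WT, it is shown with the 250 bases before its RefSeq start (chr5:92602801-92603050, plus strand), 10 of which lie inside the GENCODE span, with CANNTG in capitals.
Stbd1: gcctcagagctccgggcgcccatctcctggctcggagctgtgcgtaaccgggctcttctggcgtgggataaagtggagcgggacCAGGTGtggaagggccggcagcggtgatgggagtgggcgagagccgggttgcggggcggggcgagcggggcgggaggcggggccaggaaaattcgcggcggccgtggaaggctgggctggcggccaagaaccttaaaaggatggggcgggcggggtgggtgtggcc
Here 1 CANNTG and 4 GGGCGG were found, and the GC content of 71.2% compares with a median of 52.4% over all windows.

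**Figure D3:**
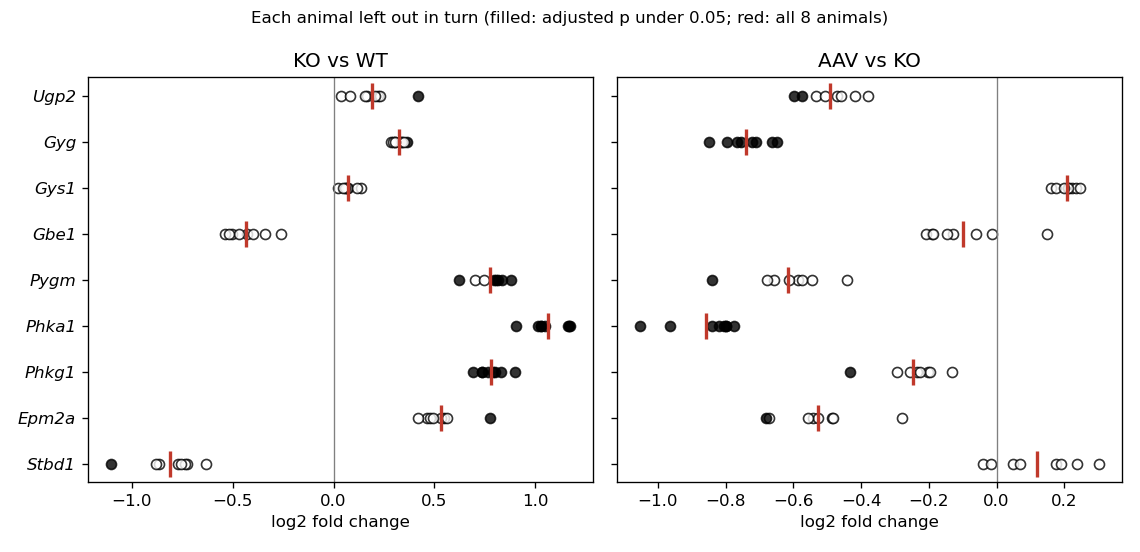
Log2 fold change of the 9 genes when each of the 8 animals of a comparison is left out in turn (circles, filled where adjusted p was below 0.05, limma with BH adjustment) and with all 8 animals (red bar). Phka1 and Phkg1 are filled throughout in KO vs WT, Pygm in 6 of 8 fits there, and Gyg and Phka1 throughout in AAV vs KO. All other filled circles belong to fits without WT 3, without AAV 3 or, for Ugp2, without AAV 2.

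The count of members called depended on the libraries labelled WT 3 and AAV 3. Without WT 3, 7 of the 9 were called in KO against WT, with Ugp2, Gyg and Epm2a added as higher, and the range over the 8 fits was 2 to 7 (2 without KO 1 or without KO 4). The share of all genes called moved too, from 27.6% to 48.4% without WT 3, 15.9% without KO 1 and 17.4% without KO 4. Without AAV 3, 6 of the 9 were called lower in AAV against KO, with Ugp2, Pygm, Phkg1 and Epm2a added, and the range was 2 to 6. In that fit 34.1% of all genes were called, against 26.3% with all 8 libraries. Among the libraries labelled WT, WT 3 had the highest count of Ugp2, Gyg, Pygm, Phkg1 and Epm2a and the lowest of Stbd1. Among those labelled AAV, AAV 3 had the highest count of Pygm, Phka1, Phkg1, Epm2a and Stbd1 and the lowest of Gbe1. Neither is a library that stood apart in Gaa.

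The libraries labelled KO varied least. Their coefficient of variation was 5.49% to 16.1% over the 9 members (median 8.06%), beside medians of 24.6% for WT and 29.3% for AAV libraries. It was the lowest of the 3 groups for 8 of the 9 members, the exception being Gys1. Over 15099 genes it was the lowest for 64.5%.

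Compared with WT libraries, those labelled AAV gave 0 of 9 members that passed the test by limma, DESeq2 or edgeR (BH), with 2 at an unadjusted p below 0.05 by limma, Gyg and Phkg1, as 18.2% of all genes were. Over all 14939 genes 1.29% passed by limma, 0.951% higher and 0.341% lower, and 0.951% with the fold threshold. The groups overlapped for 9 of 9 members, where 11.7% of all genes did not overlap, 6.69% higher and 4.97% lower. The log2 fold changes were -0.30 for Ugp2, -0.42 for Gyg, 0.28 for Gys1 and -0.53 for Gbe1. Those of the breakdown genes were 0.16 for Pygm, 0.21 for Phka1 and 0.53 for Phkg1, and those of Epm2a and Stbd1 were 0.0059 and -0.69. The 95% intervals were wide, -0.79 to -0.037 for Gyg, 0.044 to 1.02 for Phkg1 and -1.43 to 0.058 for Stbd1, so that equal levels were not shown. Over fits without 1 library the sign for Pygm turned without AAV 3 (-0.064), where Phka1 was at 0.012, Gbe1 at -0.29 and Phkg1 at 0.35. Ugp2 ranged from -0.46 (without WT 2) to -0.073 (without WT 3) and Epm2a from -0.15 (without AAV 3) to 0.26 (without AAV 4). Without WT 2 the others were at -0.43 for Gyg, 0.34 for Gys1, -0.53 for Gbe1, 0.19 for Pygm, 0.17 for Phka1, 0.55 for Phkg1, -0.11 for Epm2a and -0.61 for Stbd1. Without AAV 4 they were at -0.19 for Ugp2, -0.34 for Gyg, 0.32 for Gys1, -0.62 for Gbe1, 0.33 for Pygm, 0.27 for Phka1, 0.65 for Phkg1 and -0.82 for Stbd1, and no fit without 1 library called a member. Leaving out WT 2 and AAV 4 together gave 0 calls as well, where 0.068% of all genes were called. In the fits without 1 library that share was 0.121% (without AAV 2) to 2.97% (without WT 3).

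Where a muscle and a non-muscle isoform exist, the reads came almost wholly from the muscle gene. Gys1 made up 99.8% of Gys1 and Gys2 per kilobase of exon (mean of 12 animals), Pygm 99.9% of Pygm, Pygb and Pygl, Phka1 99.0% of Phka1 and Phka2, and Phkg1 96.0% of Phkg1 and Phkg2. The lowest share in any library was 93.3%, for Phkg1 in WT 4, and its range was 97.3% to 97.8% in the libraries labelled KO. Phkg2, the non-muscle γ subunit, was counted at 288, 344, 204.5 and 369.6 in WT 1 to 4, 262, 254, 269.7 and 260.0 in KO 1 to 4, and 551, 367.5, 345 and 461 in AAV 1 to 4. It was higher in each library labelled AAV than in each labelled KO, at 0.69 with an SE of 0.16 and an adjusted p of 0.0140, and -0.17 (adjusted p = 0.512) in KO against WT (limma, BH). The isoforms Gys2, Pygb, Pygl and Phka2 passed the test in neither comparison, and their mean normalized count in the libraries labelled KO was 15, 164, 57 and 223.

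Per kilobase of exon, the order of the members over the 12 animals was Pygm, Ugp2 (5205 ± 1412), Gyg (4836 ± 1111), Phka1 (3835 ± 1520), Gys1 (3130 ± 345), Phkg1 (2200.0 ± 630), Stbd1 (1207 ± 514), Epm2a (1070.0 ± 317) and Gbe1, as normalized counts per kilobase with the SD over animals. Only Pygm at the top and Gbe1 at the bottom are set off from their neighbours by more than the sum of their SDs, which include the differences between groups. The order depended on the length used. Per kilobase of coding sequence Phkg1 was at 12300.0, second to Pygm at 74050.0, with 1164 of its 6509 exon bases coding, Gys1 (6583) stood above Phka1 (6380.0) and Epm2a (3552) above Stbd1 (2623). The ratio of Pygm to Gys1 per kilobase of exon, breakdown over synthesis within an animal, was 12.5 to 19.4 in the libraries labelled WT, 21.2 to 29.7 in those labelled KO and 10.7 to 22.3 in those labelled AAV. Its mean was 15.8 ± 2.95, 25.6 ± 4.38 and 14.9 ± 5.14 in the same order (SD, n = 4), and the libraries labelled KO and WT did not overlap. The ratio of Gyg to Gys1 was 1.42 to 1.84, 1.79 to 2.28 and 0.798 to 1.31, and the libraries labelled AAV lay below all of the others.

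**Figure D4:**
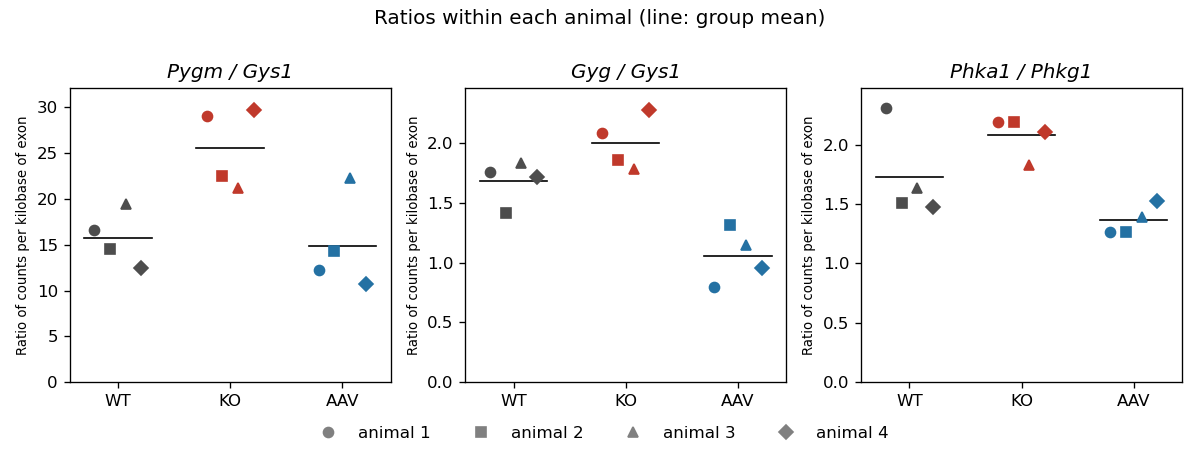
Ratios of normalized counts per kilobase of exon within each animal (linear axes from 0), by group; shapes stand for animals 1 to 4 and lines for group means (n = 4). The Pygm to Gys1 ratio of the libraries labelled KO (21.2 to 29.7) lies above that of those labelled WT (12.5 to 19.4), and the Gyg to Gys1 ratio of those labelled AAV (0.798 to 1.31) below the other groups.

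Across the 12 libraries, Pearson correlations of log2 levels between members ranged from -0.72 to 0.93 over 36 pairs (median 0.0802), with 20 positive and 4 above 0.8. They share libraries and group differences and are given as a description. The lowest was between Gbe1 and Phkg1, and the 4 above 0.8 were Pygm with Phka1 (0.93), Pygm with Phkg1 (0.89), Ugp2 with Epm2a (0.84) and Phka1 with Phkg1 (0.84). Among 11070 genes with a mean of at least 50, the gene most like Pygm was Gpt2 (r = 0.98), for Phka1 it was D230002A01Rik (0.97) and for Phkg1 it was Mylk2, a myosin light chain kinase (0.97). For Gyg it was Gpam (0.98), for Ugp2 Eif4g2 (0.98), for Epm2a Osgepl1 (0.97), for Stbd1 Abcb6 (0.93), for Gbe1 Gdpd1 (0.92) and for Gys1 Phrf1 (0.91). Correlations with the fast-fibre marker Myh4 were 0.96 for Pygm, 0.93 for Phka1, 0.77 for Phkg1, 0.77 for Gyg, 0.70 for Epm2a and 0.57 for Ugp2. With Myh4, Gys1 was at -0.058, Stbd1 at -0.24 and Gbe1 at -0.33, also as a description.

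The members are part of a larger pathway, for which a list of 36 other genes was used, 35 of them in the tables. In KO against WT, 16 of the 35 passed the test, 12 higher and 4 lower, where 27.6% of all genes passed (12.3% higher, 15.3% lower), with a median log2 fold change of 0.48 beside 0.024 over all genes. In AAV against KO, 15 passed, 4 higher and 11 lower, where 26.3% of all genes passed (12.8% higher, 13.4% lower), with a median of -0.21 beside 0.0405. In AAV against WT, 0 passed by limma or edgeR and 2 by DESeq2, Hk2 (higher) and Ppp1ca (lower), with 6 at an unadjusted p below 0.05 (limma, BH). Of all genes, 1.29% passed by limma, 1.08% by edgeR and 6.46% by DESeq2, and 18.2% had an unadjusted p below 0.05. These counts moved with the animals used: over fits without 1 library they were 8 to 24 in KO against WT (24 without WT 3, 8 without WT 4 or KO 1, 10 without WT 2) and 8 to 19 in AAV against KO (19 without AAV 3, 8 without KO 4 or AAV 1, 16 without AAV 4). The share of all genes called moved with them, in the same order 48.4%, 16%, 15.9% and 17.9%, and 34.1%, 13.2%, 15% and 22.1%. In the next paragraphs each value is a log2 fold change by limma, with its BH-adjusted p, for KO against WT first and AAV against KO second. The number of fits without 1 library, of 8, that called it follows for a gene whose call was not kept in all 8.

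The non-muscle phosphorylases Pygb and Pygl passed the test in neither comparison. Phkb, the β subunit of phosphorylase kinase, was named after its values were seen, with 0.94 (adjusted p = 0.0201, 4 of 8 fits) and -0.88 (adjusted p = 0.0272, 4 of 8 fits).

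Among genes that hand hexose phosphates to the pathway, the phosphoglucomutase that the tables call Pgm2 (ENSMUSG00000025791, named Pgm1 in GENCODE M21) was at 0.76 (adjusted p = 0.00797) and -0.81 (adjusted p = 0.0256, 3 of 8 fits). Pgm2l1, a related enzyme that makes glucose 1,6-bisphosphate, was at 1.21 (adjusted p = 0.0181, 6 of 8 fits) and -1.02 (adjusted p = 0.0321, 3 of 8 fits). The hexokinases went opposite ways in KO against WT, with Hk2, the form of insulin-sensitive muscle, at 0.59 (adjusted p = 0.0187, 5 of 8 fits) and Hk1 at -2.21 (adjusted p = 0.0171, 6 of 8 fits), by limma with BH adjustment. Hk1 was counted at 1643, 1770.0, 243.5 and 1457 in WT 1 to 4, 197, 240.3, 263 and 179 in KO 1 to 4, and 599.5, 338, 306 and 1631 in AAV 1 to 4. WT 3 was within the range of the libraries labelled KO, and AAV 4 was at the level of the other libraries labelled WT. In AAV against KO, Hk1 was at 1.37 (adjusted p = 0.0473, 3 of 8 fits, and 0.86 without AAV 4) and Hk2 at 0.098 (adjusted p = 0.664).

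Protein phosphatase 1 reverses the kinase's action, and its targeting subunits hold it on glycogen. Ppp1r3a, a targeting subunit of muscle, was at 1.59 (adjusted p = 0.0134) in KO against WT and -1.24 (adjusted p = 0.0108) in AAV against KO. The targeting subunit Ppp1r3c was more abundant, with a mean of 7034 normalized counts per kilobase of exon over the 12 animals, beside 985 for Ppp1r3a. Ppp1r3c passed the test in neither comparison, at 0.52 (adjusted p = 0.182) and -0.43 (adjusted p = 0.111, limma, BH). Ppp1r3e was at 2.28 (adjusted p = 0.00785) and -3.23 (adjusted p = 0.00160), at low counts of 2.8 to 84.0 over the 12 libraries, and it belongs to the signature that the study chose on these samples. The catalytic subunit Ppp1ca was at -0.63 (adjusted p = 0.0194, 4 of 8 fits) and -0.15 (adjusted p = 0.458), with the latter near 0 and at 0.014 when libraries were scaled by total reads (limma, BH).

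A list of 9 genes was used for kinases that act on glycogen synthase, and it includes non-catalytic subunits of AMP-activated protein kinase. Of these 9, 3 were higher and 1 lower in KO against WT, and 1 was higher and 3 lower in AAV against KO. Over all genes 12.3% were higher and 15.3% lower in the former, and 12.8% and 13.4% in the latter. Gsk3b was at 0.81 (adjusted p = 0.0266, 1 of 8 fits) and -0.75 (adjusted p = 0.00813). Of the subunits of AMP-activated protein kinase, Prkab2 was at 1.06 (adjusted p = 0.0232, 1 of 8 fits) and -0.90 (adjusted p = 0.0201, 6 of 8 fits), and Prkaa2 at 0.74 (adjusted p = 0.0613) and -0.79 (adjusted p = 0.0149). Prkag2, a γ subunit, was at 1661, 1149, 561 and 1094 in WT 1 to 4, 344, 383, 327 and 393 in KO 1 to 4, and 728, 575, 575 and 829.6 in AAV 1 to 4. The 4 libraries labelled KO were below all the others, at -1.53 (adjusted p = 0.00520) and 0.89 (adjusted p = 0.00500) by limma with BH adjustment. The γ subunit Prkag3 went the other way in KO against WT, at 0.78 (adjusted p = 0.0337) and -0.21 (adjusted p = 0.573, limma, BH). Its mean count in KO libraries was 5562, beside 362 for Prkag2. Prkag1 passed the test in neither comparison, at -0.11 (adjusted p = 0.447) and 0.036 (adjusted p = 0.795, limma, BH). Fits without 1 library are not given for Prkag1 and Prkag3. Gabarapl1, an ATG8-family protein that binds Stbd1, was at -0.64 (adjusted p = 0.00921) and 0.75 (adjusted p = 0.0117), and its groups did not overlap in either comparison. Nhlrc1, the ubiquitin ligase malin that partners with laforin, was at -0.34 (adjusted p = 0.140) and 0.45 (adjusted p = 0.0694), past the threshold in neither (limma, BH).

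**Figure D5:**
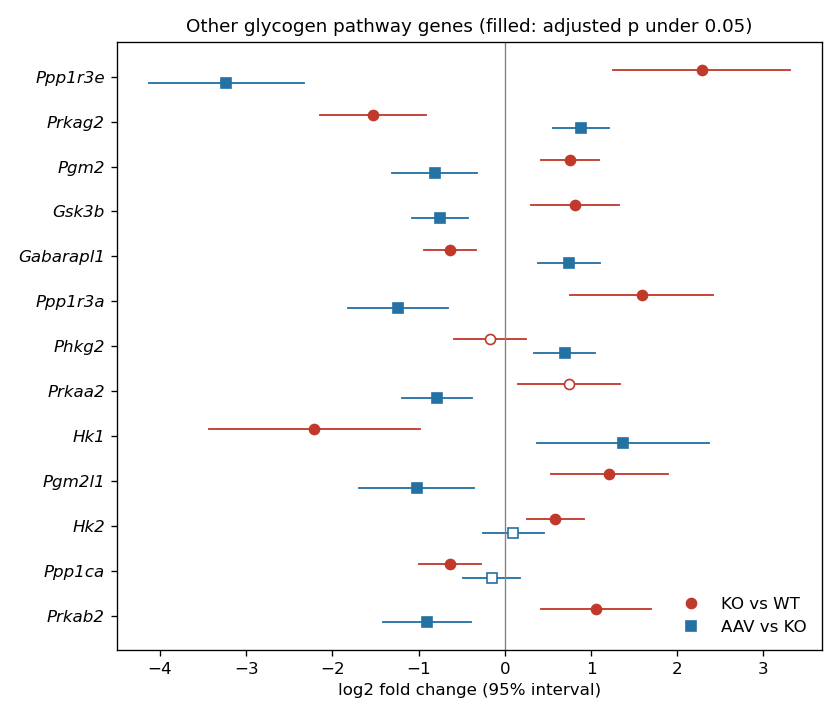
Log2 fold change with 95% interval of the other glycogen pathway genes with the lowest adjusted p that are named in the text, in KO vs WT (red circles) and AAV vs KO (blue squares), 4 animals a group; filled points had adjusted p below 0.05 (limma, BH). Both comparisons share the libraries labelled KO, and Ppp1r3e has the values farthest from 0, 2.28 and -3.23.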

How the data were processed

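RNA from quadriceps of 12 mice (4 labelled WT, 4 KO and 4 AAV) was sequenced. The authors trimmed reads with Trim Galore 0.4.1 (20 bases or longer kept), checked them with FastQC 0.11.2, mapped them to GRCm38 with STAR, kept those with a single location, counted them with HTSeq 0.6.1, dropped genes under 10 reads in every library and normalized with DESeq2 1.16.1. The deposited signal of each animal is therefore a count divided by a size factor, and 100% of the values in every library came out as whole reads (within 0.02 of a read) when divided by the value of 1 read. The authors' tables also give a log2 fold change and its standard error, a test score, and p-value and adjusted p-value columns of their own comparisons, which were not used. No per-sample column was left unmapped (0 columns), and both tables gave the KO libraries the same values (largest difference 0). The steps are credited to the submitters' processing notes and the study's methods.

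Groups were compared by limma 3.58.1 with a trend on log2(value + 1), which understates the change of low genes, for genes reaching 10 in 1 or more of the 8 libraries in a comparison. P-values were adjusted over all of these by the Benjamini-Hochberg method (BH), with a call below 0.05. The adjusted p of the closing section is from the same fit unless a tool is named. Alternatives used edgeR 4.0.16 and DESeq2 1.42.0 on the recovered reads, other scalings, filters and pseudocounts, all 12 animals together, the replicate number as a block, and animals left out. Copies were sought with BLAST 2.17.0 (90% identity or more along 50% of a transcript), and the fits were tested on simulated data. Named are the 9 genes, Gaa, up to 15 other pathway genes with the lowest adjusted p, the isoforms of the members and the gene most correlated with each. Phkb, Nhlrc1, Prkag1, Prkag3 and Ppp1r3c were named outside this rule, after their values were seen. Some of the pathway genes this rule names are not reported here. The members and lists were chosen with earlier results of these data known. The labels number 4 samples in each group, and p-values measure the spread between these samples only. Lengths and overlaps are from GENCODE M21 (GRCm38). Software was R 4.3.3, Python 3.11.15, pandas 2.3.3, numpy 2.4.6 and matplotlib 3.10.9.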

Additional observations from a re-analysis of the deposited data

Results flagged for a closer look

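For the 9 genes and Gaa, 30 groups of 4 libraries were looked at for a library far from the other 3 (a gap to its nearest neighbour, as a share of the group's range, above Dixon's critical value for 4). Such a gap was found in 4 groups, and chance gives it in about 1 group in 20. Phka1 was at 28941.7 in the library labelled AAV 3, a gap of 0.931 of the range. Epm2a was at 4895.7 in the library labelled WT 3, a gap of 0.879. Gaa was at 14640.2 in WT 2 (gap 0.990) and at 9854.3 in AAV 4 (gap 0.952), so that the libraries standing apart in Phka1 and Epm2a are not those standing apart in Gaa.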

How the results depend on the processing

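Phka1 and Phkg1 (KO against WT) and Gyg (AAV against KO) were called under 17 of 17 alternatives, Phka1 in AAV against KO under 16 of 17 and Pygm in KO against WT under 14 of 17. Fewer called Stbd1 in KO against WT (7 of 17), and Gyg in KO against WT and Ugp2 in AAV against KO, near the threshold, were called under 4 each. The replicate numbers do not pair the animals (correlation of same-numbered libraries' deviations -0.355 to 0.554), and with them as a block 1 member was called in AAV against KO (14.6% of all genes), since Phka1 had an adjusted p of 0.0532 (limma), and Pygm in KO against WT had one of 0.0588. Over fits without 1 library each, the members called numbered 2 to 7 in KO against WT (7 without WT 3, 2 without KO 1 or KO 4) and 2 to 6 in AAV against KO (6 without AAV 3), and the other pathway genes called 8 to 24, 8 to 19 and, in AAV against WT, 0 to 2 (2 without WT 3, where 2.97% of all genes were called). In that last comparison the other pathway genes called were also 2 by DESeq2 on the recovered reads (6.46% of all genes), 1 with libraries scaled by total reads (2.12%), 2 with all 12 animals in one fit (6.03%) and 1 without WT 3 and AAV 3 (1.3%), a setting chosen after seeing the data. Scaling by total reads moved the median of all genes from 0.0405 to 0.21 in AAV against KO and turned Gbe1 (0.067) and Ppp1ca (0.014) there. Over fits without 1 library, the log2 fold change in AAV against KO was -0.21 to 0.15 for Gbe1 and -0.0415 to 0.30 for Stbd1, and in AAV against WT it was -0.064 to 0.33 for Pygm and -0.15 to 0.26 for Epm2a. With coding in place of exon length the share of Pygm among its isoforms was 99.897% and that of Phkg1 among its own 97.6% (lowest library 95.97%), because the lengths differ, and levels per kilobase of the 9 members were higher, with an order in which Phkg1 and Epm2a moved up and Phka1 fell below Gys1. For all other changes the cause was not tested. Precision is limited by 4 animals a group and by depth, with 633 reads behind the lowest member value. Library codes coincide with the groups, so that a batch and the group cannot be told apart.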
